A study of Mus musculus with 12 samples.

Results

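Natriuretic peptides, the proteins that process and receive them, and genes typical of atrial muscle were followed through 12 RNA-Seq libraries from MED13cTg and WT mice. The set held 9 genes of the 23042 entries in each expression table: Nppa and Nppb, which encode the precursors of atrial and B-type natriuretic peptide; Corin, the protease that activates them; the receptor genes Npr1, Npr2 and Npr3; and Sln, Myl7 and Myl4, which are expressed mainly in atrial muscle of the adult heart. Each was looked up by its symbol in the table of each tissue, and all 9 were listed in both. The rule used no difference between genotypes, and every gene that passed a filter on low values was tested.

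Ventricles and epididymal fat, a depot of white adipose tissue (WAT), were taken from 3 WT and 3 MED13cTg mice per tissue, with 1 library per mouse. The labels describe male C57BL/6 littermates aged 6 weeks that were fed normal chow and sampled in the late afternoon with free access to food, and their genotypes are wild type and MED13 cardiac transgenic. MED13cTg mice overexpress MED13, a subunit of the Mediator kinase module that regulates transcription, in the heart, and the promoter that drives the transgene is not given in the sources used here. Expression was given as FPKM, the fragments of a gene scaled by transcript length and by the mapped fragments of the library. The comparison asked how genes of the cardiac hormone system stood in the heart that carries the transgene and in a target tissue of its hormones, and whether Nppa differed in the same libraries as other atrial genes.

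Natriuretic peptides are hormones of heart muscle. In the healthy adult, atrial myocytes make most atrial natriuretic peptide, while the ventricle makes more of both peptides under load or in disease, so Nppa and Nppb are widely used as markers of ventricular stress. NPR1 is the cGMP-producing receptor of both peptides, NPR2 is the receptor of C-type natriuretic peptide, and NPR3 takes the peptides up and clears them. In adipocytes, cGMP made by NPR1 can drive lipolysis, and the balance of Npr1 and Npr3 affects how a fat depot answers to the hormones. Whether the peptides drive lipolysis in the fat of these mice was not tested.

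Nppb and Nppa lie close together on chromosome 4, at chr4:147359897-147361314 and chr4:147374854-147376176 in mm9, the build named for the files, with 13540 bases between them, and Myl7 on chromosome 11 is a typical atrial gene. The 250 bases before each start are shown because these 3 genes differed from each other across the ventricle libraries. They were taken from RefSeq on GRCm38.p6, where 8 of the 9 genes had an entry: chr4:148000472-148000721 on the plus strand for Nppa, chr4:147985650-147985899 on the plus strand for Nppb and chr11:5898783-5899032 on the minus strand for Myl7. Capitals mark matches on either strand to 7 short motifs. They were AGATAA with its variant TGATAA for GATA proteins, the NKX2-5 core site AAGTG, the T-box motif GGTGTG, the TEAD motif CATTCC, the nuclear receptor core site AGGTCA and the SRF CArG box, and no match overlapped another.
Nppa: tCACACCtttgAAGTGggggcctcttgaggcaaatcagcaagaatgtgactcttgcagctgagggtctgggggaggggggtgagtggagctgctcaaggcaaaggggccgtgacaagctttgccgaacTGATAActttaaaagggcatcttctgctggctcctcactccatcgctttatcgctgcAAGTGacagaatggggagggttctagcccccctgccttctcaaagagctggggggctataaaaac
Nppb: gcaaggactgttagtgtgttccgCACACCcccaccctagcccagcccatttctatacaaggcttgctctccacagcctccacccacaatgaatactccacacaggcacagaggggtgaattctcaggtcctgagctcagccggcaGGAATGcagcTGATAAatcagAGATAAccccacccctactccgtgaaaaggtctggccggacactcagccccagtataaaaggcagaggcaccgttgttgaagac
Myl7: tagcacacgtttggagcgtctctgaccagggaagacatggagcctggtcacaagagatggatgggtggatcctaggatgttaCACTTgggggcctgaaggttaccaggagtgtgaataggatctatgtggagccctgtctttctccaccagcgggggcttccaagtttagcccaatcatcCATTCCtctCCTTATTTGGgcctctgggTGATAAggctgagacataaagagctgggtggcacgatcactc
TGATAA was found in all 3, with its first base at -122 in Nppa, -95 in Nppb and -42 in Myl7 counted from the start, and it occurred in 9.05% of the 32851 promoter windows in RefSeq, which run from 250 bases before to 50 bases after the start and so are longer than the sequences shown. Nppb also held AGATAA at -84, a motif of 11.2% of windows. AAGTG was present in Nppa at -239 and -65 and in Myl7 at -168, and in 46.4% of all windows. Nppa and Nppb each held GGTGTG on the minus strand, at -249 and -227, as did 19.0% of windows. CATTCC matched Nppb at -105 and Myl7 at -70 and 14.7% of windows, and the SRF CArG box matched Myl7 at -61 and 1.63% of windows. AGGTCA, which is in 16.3% of windows, was not found in these 3. These matches describe letters in the sequence and not binding.

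Med13 checked the labels. In ventricles it was at 13.1, 10.6 and 11.5 FPKM in WT against 263, 181 and 204 FPKM in MED13cTg mice, with a log2 fold change of 4.08 and a standard error (SE) of 0.17 (adjusted p = 0.000281 by limma with Benjamini-Hochberg adjustment). In WAT the groups overlapped, with means of 10.1 ± 0.764 FPKM in WT and 9.85 ± 1.75 FPKM in MED13cTg mice (SD, n = 3). The ventricle libraries formed 2 clusters that cut across genotype, WT replicate 1 with MED13cTg replicates 1 and 2, and WT replicates 2 and 3 with MED13cTg replicate 3, with rank correlations of 0.959 to 0.969 within clusters and 0.944 to 0.957 between them. In WAT, MED13cTg replicates 1 and 2 stood apart in their cell markers, as described with the WAT results. Of 12589 genes tested in ventricles, 0.0238% passed an adjusted p of 0.05 as higher in MED13cTg mice and 0.0318% as lower, and of 14967 in WAT 0% and 0.0134%.

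None of the 9 genes passed the threshold in ventricles, where all 9 were tested. Nppa alone had an unadjusted p under 0.05, as higher in MED13cTg mice, where 1.69% of all genes tested were higher and 3.03% lower by that rule. Nppa was also the one member whose groups did not overlap, against 3.46% of all genes higher and 5.85% lower without overlap. The median log2 fold change was 0.14 over the members and -0.014 over all genes tested.

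Nppa was the most abundant member in ventricles. It was at 564, 408 and 368 FPKM in WT replicates 1, 2 and 3 and at 892, 1773 and 1088 FPKM in MED13cTg replicates 1, 2 and 3. Every MED13cTg library lay above every WT library, and MED13cTg replicate 2 was the highest. The means were 447 ± 104 FPKM in WT and 1251 ± 462 FPKM in MED13cTg mice (SD, n = 3), a ratio of 2.80. The difference did not pass the threshold (log2 fold change 1.45, SE 0.29, unadjusted p = 0.00184, adjusted p = 0.746 by limma). Leaving out MED13cTg replicate 2 gave 1.16 and leaving out MED13cTg replicate 1 gave 1.66, the lowest and highest of 17 alternatives, whose adjusted p ranged from 0.0736 to 1.00. In bulk tissue, more cells of a type and more RNA per cell cannot be told apart.

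Nppb, whose product is the peptide measured in blood as a marker of heart failure, did not separate the genotypes. It was at 205, 130 and 94.7 FPKM in WT against 239, 230 and 89.7 FPKM in MED13cTg replicates 1, 2 and 3. MED13cTg replicate 3, the second highest library for Nppa, was the lowest of all 6 for Nppb. The means were 143 ± 56.1 and 186 ± 83.8 FPKM (SD, n = 3; log2 fold change 0.32, SE 0.44, adjusted p = 0.966 by limma). Leaving out MED13cTg replicate 3 gave a log2 fold change of 0.78. Nppa exceeded Nppb by 2.76, 3.15 and 3.89 times in the WT libraries and by 3.73, 7.72 and 12.1 times in MED13cTg replicates 1, 2 and 3. The lowest of these ratios in MED13cTg mice lay below the highest in WT mice.

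Corin, a membrane protease of heart muscle that cleaves the natriuretic peptide precursors, varied little. It was at 141, 157 and 126 FPKM in WT against 116, 122 and 132 FPKM in MED13cTg mice. The groups overlapped through WT replicate 3 and MED13cTg replicate 3 (log2 fold change -0.19, SE 0.13, adjusted p = 0.966 by limma). The highest library had 1.35 times the lowest, compared with 4.82 times for Nppa. Set against Nppa in the same library, Corin stood at 25.0, 38.4 and 34.3% of its FPKM in WT and 13.0, 6.87 and 12.1% in MED13cTg mice. Since Corin varied little, these percentages mostly restate the difference of Nppa.

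The receptors overlapped between genotypes as well. The entry that holds Npr1 is joined to Ints3, a neighbouring gene of the Integrator complex, so its values are uncertain. This entry stood at 33.8, 31.7 and 27.1 FPKM in WT against 28.0, 28.7 and 31.8 FPKM in MED13cTg mice (log2 fold change -0.06, SE 0.12, adjusted p = 0.971 by limma). The lowest library was a WT library, and the MED13cTg libraries lay inside the WT range. Npr2 was at 51.0, 38.5 and 37.5 FPKM in WT against 40.3, 46.6 and 40.0 FPKM in MED13cTg mice (log2 fold change 0.0083, SE 0.15). Again all 3 MED13cTg values fell inside the WT range. Npr3, the clearance receptor, had the lowest mean of the 9 genes in ventricles, though Sln was lower in WT replicate 2 and MED13cTg replicate 3. Npr3 stood at 10.3, 8.21 and 7.59 FPKM in WT against 7.91, 11.5 and 9.80 FPKM in MED13cTg mice (log2 fold change 0.14, SE 0.17). Its highest value was in MED13cTg replicate 2 and its lowest in WT replicate 3, with overlap between them.

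**Figure D1:**
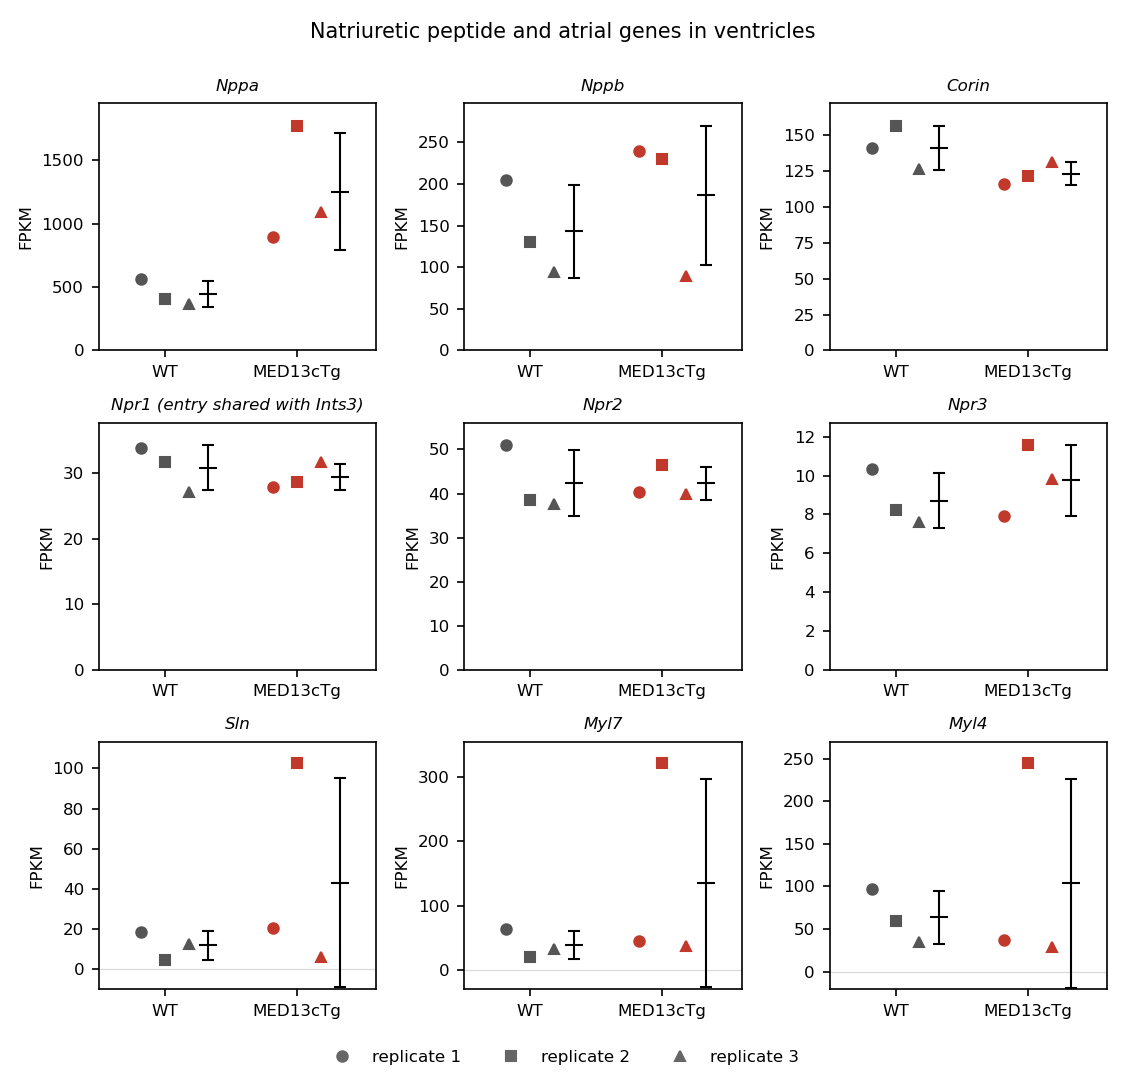
FPKM of the 9 genes in ventricles (linear axis), with 1 point per library, grey for WT and red for MED13cTg, and a bar for mean ± SD (n = 3) beside each group. Nppa is the one gene without overlap, while for Sln, Myl7 and Myl4 a single library, MED13cTg replicate 2, lies far above the other 5.

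The atrial genes were set apart by 1 library. Myl7, the atrial regulatory myosin light chain, was at 63.5, 20.9 and 32.3 FPKM in WT against 45.6, 322 and 37.4 FPKM in MED13cTg replicates 1, 2 and 3. Sln, which encodes sarcolipin, an inhibitor of the calcium pump SERCA, was at 18.7, 4.30 and 12.3 FPKM in WT against 20.3, 103 and 6.11 FPKM in MED13cTg mice. Myl4, the atrial essential myosin light chain, was at 96.8, 59.6 and 34.4 FPKM in WT against 37.6, 245 and 28.5 FPKM in MED13cTg mice. For all 3 genes MED13cTg replicate 2 was the highest library by a wide margin and the other MED13cTg libraries lay within the WT range, other than Sln of MED13cTg replicate 1 just above it and Myl4 of MED13cTg replicate 3 just below it. The log2 fold changes were 1.21 (SE 0.83) for Myl7, 1.17 (SE 0.97) for Sln and 0.14 (SE 0.81) for Myl4, with adjusted p of 0.966, 0.966 and 0.988 by limma. Without MED13cTg replicate 2 they were 0.23, 0.15 and -0.82.

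Library by library, the difference in Nppa and the level of the atrial genes came apart, other than for Sln in MED13cTg replicate 1. In MED13cTg replicate 2, Myl7, Myl4 and Sln stood at 7.75, 7.42 and 7.79 times the mean of MED13cTg replicates 1 and 3, whereas Nppa stood at 1.79 times and Nppb at 1.40 times. In MED13cTg replicates 1 and 3 the mean of Nppa was 2.22 times the WT mean, while that of Myl7 was 1.07 times, Sln 1.13 times, Myl4 0.520 times and Nppb 1.15 times. Nppa was thus higher than in WT also in the 2 MED13cTg libraries whose atrial genes were near or below the WT level. WT replicate 1 had the highest Myl7 and Myl4 of the WT libraries and also the highest WT level of Nppa. Relative to Myl7 in the same library, Nppa was 8.89, 19.5 and 11.4 times as abundant in WT and 19.6, 5.51 and 29.1 times in MED13cTg replicates 1, 2 and 3. The lowest of these ratios belonged to the library with the most Nppa. With the mean log2 level of Sln, Myl7 and Myl4 as a covariate, a fit chosen after seeing the data, the log2 fold change of Nppa was 1.21 (adjusted p = 0.386 by limma). With the planned atrial score, the mean log2 level of the other atrial markers described below, it was 1.45 (adjusted p = 0.988 by limma).

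**Figure D2:**
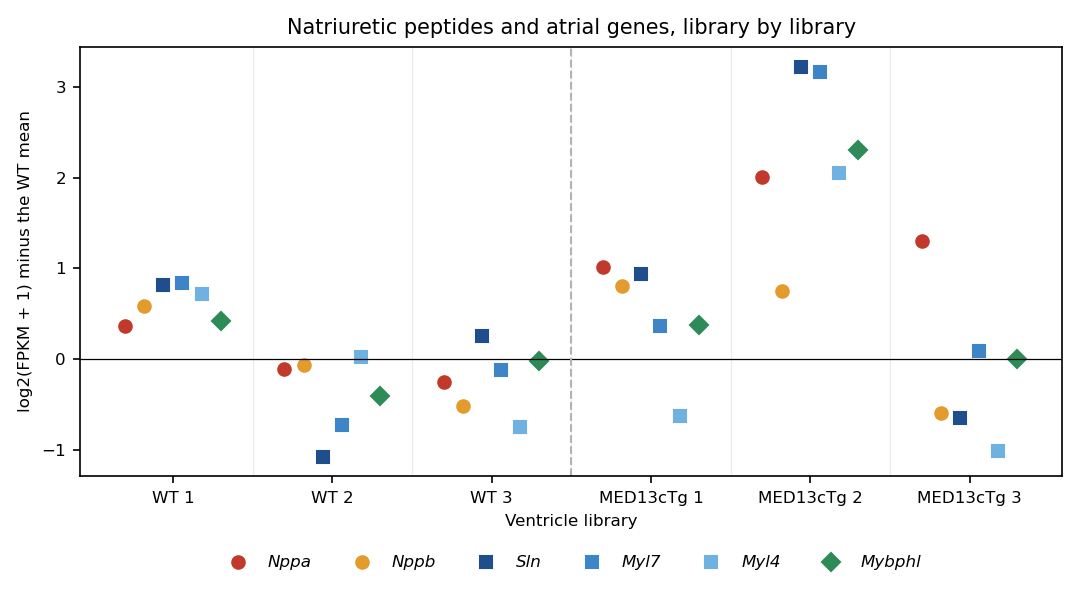
log2(FPKM + 1) minus the WT mean for Nppa, Nppb, Sln, Myl7, Myl4 and Mybphl in each ventricle library. Nppa stands at 1.02, 2.01 and 1.31 in MED13cTg replicates 1, 2 and 3, whereas Myl7 stands at 0.37, 3.16 and 0.09. Sln stands at 0.94, 3.22 and -0.65.

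Other markers of atrial myocytes were read from a list of 10 genes. Mybphl, a myosin-binding protein of atrial and conduction muscle, was at 2.18, 0.792 and 1.33 FPKM in WT against 2.08, 10.7 and 1.37 FPKM in MED13cTg mice. Its proportion to Myl7 ranged 1.37-fold over the 6 libraries, 3.44, 3.79 and 4.14% in WT and 4.55, 3.32 and 3.66% in MED13cTg mice, although Myl7 itself ranged 15.4-fold. Bmp10, a growth factor made by atrial muscle, was listed at 0 in 5 libraries and at 0.489 FPKM in MED13cTg replicate 2. The list was not uniform. Kcnj3, a subunit of the muscarinic potassium channel, was lowest in the same library, at 8.59, 22.3 and 25.7 FPKM in WT against 15.8, 8.07 and 23.2 FPKM in MED13cTg mice. Kcnk3, the TASK-1 potassium channel, was lower without overlap, at 70.2, 70.2 and 73.8 FPKM in WT against 47.0, 54.3 and 53.9 FPKM in MED13cTg mice (log2 fold change -0.46, SE 0.11, adjusted p = 0.902 by limma). Nr2f1, a nuclear receptor gene of the atrial list, was higher without overlap, at 1.36 to 2.21 FPKM in WT against 2.25 to 3.04 FPKM in MED13cTg mice (adjusted p = 0.966 by limma). Of the 8 genes tested, 0 passed the threshold, and the median log2 fold change was -0.13. The summed list gave 244 to 334 FPKM in WT against 231 to 281 FPKM in MED13cTg mice, with Pam, which encodes the peptide-amidating enzyme, as its largest part in each library.

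Nppb sorted with the library cluster. The cluster of WT replicate 1 with MED13cTg replicates 1 and 2 had 205, 239 and 230 FPKM, and the cluster of WT replicates 2 and 3 with MED13cTg replicate 3 had 130, 94.7 and 89.7 FPKM, without overlap. These clusters were found in the same data, from rank correlations over all genes that passed the filter, and are not groups of the study. The share of all genes that part the clusters without overlap was not counted, so the separation is not shown to be particular to Nppb. Within the clusters the ratio of MED13cTg to WT for Nppb was 1.15 in the first and 0.800 in the second, and with the cluster as a covariate its log2 fold change was -0.053. For Nppa the ratio was 2.36 in the first cluster and 2.80 in the second, with 1 library of one genotype in each. Myl7 gave 2.89 and 1.41, Sln 3.30 and 0.738, and Myl4 1.46 and 0.607. Corin gave 0.844 and 0.930, Npr1 0.838 and 1.08, Npr2 0.851 and 1.05, and Npr3 0.943 and 1.24. Nppa and Myl7 were the members with a ratio above 1 in both clusters. For Myl7 the ratio of the first cluster rested on MED13cTg replicate 2, at 322 FPKM. MED13cTg replicate 1, at 45.6 FPKM, lay below WT replicate 1, at 63.5 FPKM.

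**Figure D3:**
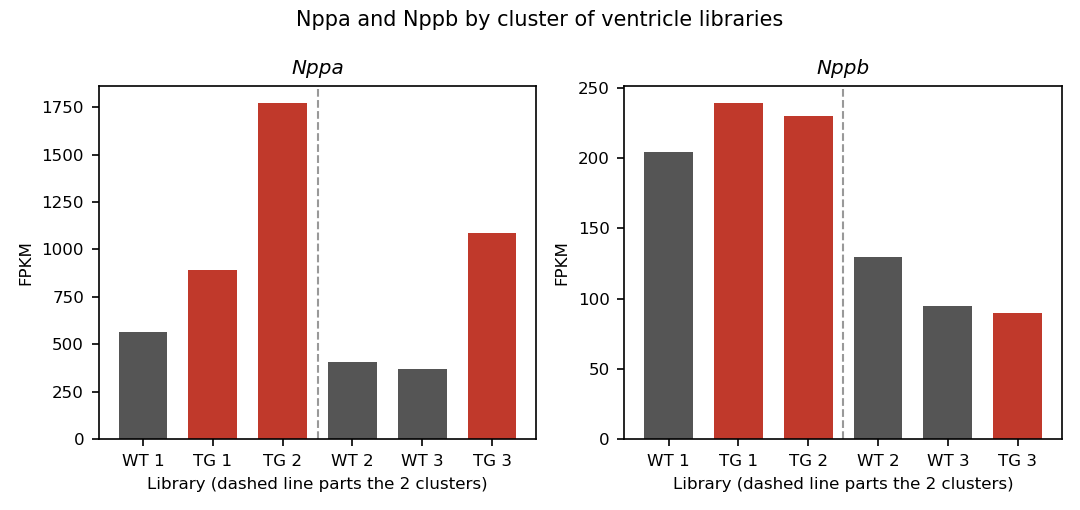
FPKM of Nppa and Nppb in the 6 ventricle libraries (bars from 0, grey for WT and red for MED13cTg, written TG), ordered by library cluster. Nppb is between 205 and 239 FPKM in the first cluster and between 89.7 and 130 FPKM in the second, whereas Nppa is higher in the MED13cTg libraries of each.

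Genes with the pattern most like that of Nppa were found by the root mean square difference over the 6 ventricle libraries, with each gene's log2 level centred on its WT mean. The first was Tnnt1, slow skeletal troponin T, with a difference of 0.29 against a median of 1.09 over all genes tested. It was at 36.6, 37.5 and 35.7 FPKM in WT against 83.6, 214 and 101 FPKM in MED13cTg mice. Nppa was 10.3 to 15.4 times as abundant as Tnnt1 in WT and 8.29 to 10.8 times in MED13cTg mice. The next were the imprinted noncoding RNA H19 (0.34), Pnmt, which encodes the enzyme that makes adrenaline from noradrenaline (0.35), Mir1982 (0.39) and the noncoding RNA Neat1 (0.44). Pnmt was at 2.52, 1.74 and 2.22 FPKM in WT against 7.62, 7.17 and 5.98 FPKM in MED13cTg mice. The genes most like Myl7 were Mybphl (0.41), Sln (0.43), S100a9 (0.51), Mir1982 (0.62) and Hspb6 (0.65), against a median of 1.37. These lists are descriptions of 6 libraries, and a difference between genotypes in the genes like Nppa follows from how they were picked.

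The rest of the natriuretic peptide pathway was read from a list of 16 genes, and 13 were tested in ventricles. None passed the threshold in either direction, 0 differed without overlap, and the median log2 fold change was -0.06. Without MED13cTg replicate 2, 3 of them were lower without overlap and 0 higher, in a comparison of 2 against 3 libraries where 12.4% of all genes were lower and 5.86% higher without overlap. Furin, a proprotein convertase that processes the B-type precursor, was at 33.7, 45.8 and 39.1 FPKM in WT against 25.9, 21.8 and 35.8 FPKM in MED13cTg mice. Its log2 fold change was -0.51 (SE 0.20, adjusted p = 0.966 by limma), and MED13cTg replicate 3 overlapped WT replicate 1. Nppc, the gene of C-type natriuretic peptide, was between 0.092 and 0.19 FPKM in all 6 libraries, and Ostn, which encodes a ligand of NPR3, was listed at 0 in all but WT replicate 1. Among the genes downstream of the receptors, the cGMP-dependent kinase gene Prkg1 was at 3.33 to 4.98 FPKM in WT against 2.89 to 3.98 FPKM in MED13cTg mice, and the phosphodiesterase genes Pde5a and Pde9a differed by -0.09 and 0.10 on the log2 scale.

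Genes of ventricular load and of the fetal heart, which often accompany Nppb in disease, were read from a list of 13. All 13 were tested, 0 passed the threshold, 1 was higher and 3 were lower without overlap, against 3.46% of all genes higher and 5.85% lower, and the median log2 fold change was -0.21. Actc1, cardiac alpha-actin, was higher at 6588 to 8183 FPKM in WT against 8395 to 8938 FPKM in MED13cTg mice. It was also listed as a general marker of cardiac myocytes, so it is not particular to load. Acta1, another actin of the list, overlapped at 177 to 307 FPKM in WT against 175 to 226 FPKM in MED13cTg mice (log2 fold change -0.30). Acta1 was named after its values were seen. Tnni1, the slow skeletal troponin I of the fetal heart, was lower at 2.99, 1.53 and 0.859 FPKM in WT against 0.611, 0.840 and 0.370 FPKM in MED13cTg mice (log2 fold change -0.74, adjusted p = 0.966 by limma). Ankrd1, a stress-responsive gene named after its values were seen, was at 578, 457 and 615 FPKM in WT against 790, 919 and 592 FPKM in MED13cTg mice, with overlap. In 8 markers of the sinus node and conduction system, 0 of the 6 tested passed the threshold, and 1 was higher and 1 lower without overlap. Tbx18, a transcription factor gene of the sinus node, was higher at 2.00 to 2.45 FPKM in WT against 2.59 to 2.78 FPKM in MED13cTg mice. Hcn4, the pacemaker channel, was lower without overlap, at 1.41, 2.67 and 2.48 FPKM in WT against 0.712, 0.649 and 1.27 FPKM in MED13cTg mice (log2 fold change -0.76, adjusted p = 0.945 by limma). Myl2, the ventricular myosin light chain, marked all 6 libraries as mainly ventricular, at 19184 to 22654 FPKM in WT against 22362 to 36273 FPKM in MED13cTg mice. Myl7 amounted to 0.109 to 0.299% of Myl2 in WT and to 0.204, 0.886 and 0.138% in MED13cTg replicates 1, 2 and 3. Summed epididymis markers were at 42.7 to 88.4 FPKM in WT ventricles against 36.4 to 83.9 FPKM in MED13cTg ventricles. Summed spermatid markers were at 7.94 to 17.2 against 12.6 to 24.3 FPKM. The source of this RNA, and of low values such as those of Mybphl, Bmp10, Hcn4 and Tnni1, was not tested.

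In WAT the makeup of the libraries comes before the members. Of 7 adipocyte markers the summed level was 13040 to 31200.3 FPKM in WT against 1205, 77208 and 16853 FPKM in MED13cTg replicates 1, 2 and 3. Of 7 epididymis markers it was 49263 to 63499 FPKM in WT and 8013, 189 and 47766 FPKM, and of 6 spermatid markers 209 to 299 FPKM in WT and 13394, 5.71 and 338 FPKM. MED13cTg replicate 1 thus held little adipocyte and much spermatid RNA. MED13cTg replicate 2 held mostly adipocyte and hardly any epididymis RNA, and MED13cTg replicate 3 was near the WT libraries. The WT libraries were themselves mixed. In each of them, and in MED13cTg replicates 1 and 3, the epididymis sum exceeded the adipocyte sum. The WT ranges in WAT given here are therefore ranges of mixed samples and not of fat alone. Of the 9 genes, 5 passed the filter of a mean of 1 FPKM, none passed the threshold or had an unadjusted p under 0.05, against 0.14% of all genes higher and 1.11% lower by the latter rule. None separated the genotypes, against 4.88% of all genes higher and 7.8% lower without overlap. Blocking on replicate number took the count over all genes from 2 to 0. The median log2 fold change was 0.35 over these 5 genes and 0.012 over all genes tested. Corin was among the 5 only through its high value in MED13cTg replicate 1, so the filter itself favoured a higher median.

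Nppa, Nppb, Sln and Myl7 were near 0 in WAT, and Myl4 was not. Nppa was at 0.119, 0.217 and 0.203 FPKM in WT against 0.346, 0.876 and 0.0727 FPKM in MED13cTg replicates 1, 2 and 3. Nppb was listed at 0 in 5 libraries and at 0.285 FPKM in MED13cTg replicate 2. Both peptides were highest in the same library, which also had the highest level of the ventricular gene Myl2, at 11.2 FPKM against 0 to 0.53 FPKM in the other 5. The cardiac transcription factor gene Nkx2-5 was listed at 0 in all 6. Sln was at 0.267 to 1.43 FPKM in WT against 0.408 to 0.520 FPKM in MED13cTg mice, and Myl7 at 0.219 to 0.585 FPKM in WT against 0.135 to 0.353 FPKM in MED13cTg mice, with overlap for both. Myl4 was at 6.65, 8.03 and 7.75 FPKM in WT against 38.4, 8.91 and 6.20 FPKM in MED13cTg replicates 1, 2 and 3. Its one high value was in the library with the most spermatid RNA, and its log2 fold change of 0.74 (SE 0.66, adjusted p = 0.738 by limma) was -0.0018 without that library.

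Corin had the same shape. It was at 0.768, 0.524 and 0.334 FPKM in WT against 12.1, 0.433 and 0.453 FPKM in MED13cTg replicates 1, 2 and 3 (log2 fold change 0.97, SE 0.94, adjusted p = 0.738 by limma). Without MED13cTg replicate 1 the gene was under the filter, and the other MED13cTg values lay inside the WT range. The part of spermatid or other cells in the high values of Corin and Myl4 was not tested.

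The receptors were the members with substantial levels in WAT. The entry of Npr1 and Ints3 was at 26.1, 28.7 and 25.2 FPKM in WT against 36.9, 40.5 and 26.7 FPKM in MED13cTg mice. MED13cTg replicates 1 and 2 lay above the WT range and MED13cTg replicate 3 inside it (log2 fold change 0.35, SE 0.23, adjusted p = 0.738 by limma). Npr2 was at 15.8, 23.9 and 18.9 FPKM in WT against 5.28, 50.8 and 17.6 FPKM in MED13cTg mice (log2 fold change -0.15, SE 0.77, adjusted p = 0.945 by limma). Npr3 was at 15.1, 35.7 and 40.6 FPKM in WT against 2.19, 100 and 21.1 FPKM in MED13cTg mice (log2 fold change -0.59, SE 1.27, adjusted p = 0.865 by limma). For both, MED13cTg replicate 1 was the lowest and MED13cTg replicate 2 the highest of all 6 libraries, and replicate 3 was inside the WT range. Leaving out MED13cTg replicate 1 turned the log2 fold changes to 0.61 for Npr2 and 0.70 for Npr3, and leaving out MED13cTg replicate 2 gave -0.91 and -1.79.

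Npr3 ran with the adipocyte markers, though not with them alone. It ranged 45.8-fold over the 6 WAT libraries and Adipoq, the adipocyte hormone adiponectin, 47.4-fold, yet Npr3 amounted to 2.70, 2.69 and 4.63% of Adipoq in WT and 2.88, 2.78 and 3.07% in MED13cTg mice. The 3 MED13cTg percentages lay inside the WT range. With the mean adipocyte marker level as a covariate, chosen after seeing the data, the log2 fold change of Npr3 was 0.010. The planned covariate, the epididymis score, moved it the other way, to -2.04, so the value depends on which cell markers are adjusted for. Endothelial markers ran in parallel, and Npr3 was 0.930 to 1.53 times Pecam1 in WT and 0.828 to 1.33 times in MED13cTg mice, a 1.85-fold range. Against Cdh5, another endothelial gene, Npr3 stood at 0.853, 0.860 and 1.58 times in WT and 0.490, 0.926 and 0.826 times in MED13cTg mice, a 3.22-fold range, compared with 1.72-fold against Adipoq. The fibroblast gene Lum was also lowest and highest in MED13cTg replicates 1 and 2, at 3.35 and 93.6 FPKM. The mesothelial gene Upk3b was too, at 0.896 and 34.9 FPKM, whereas Pdgfra and Krt19 of these lists were not. These genes were named after their values were seen. The part of adipocytes, endothelial cells or other cells in the level of Npr3 was not tested. Npr2 followed Adipoq less closely, at 2.82, 1.80 and 2.15% in WT and 6.93, 1.41 and 2.56% in MED13cTg mice. The Npr1 entry did not follow it, at 4.66, 2.16 and 2.87% in WT and 48.4, 1.12 and 3.88% in MED13cTg mice. The ratio of Npr3 to the Npr1 entry was 0.578, 1.25 and 1.61 in WT and 0.0594, 2.48 and 0.790 in MED13cTg replicates 1, 2 and 3, lowest and highest in the same libraries as the adipocyte markers.

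**Figure D4:**
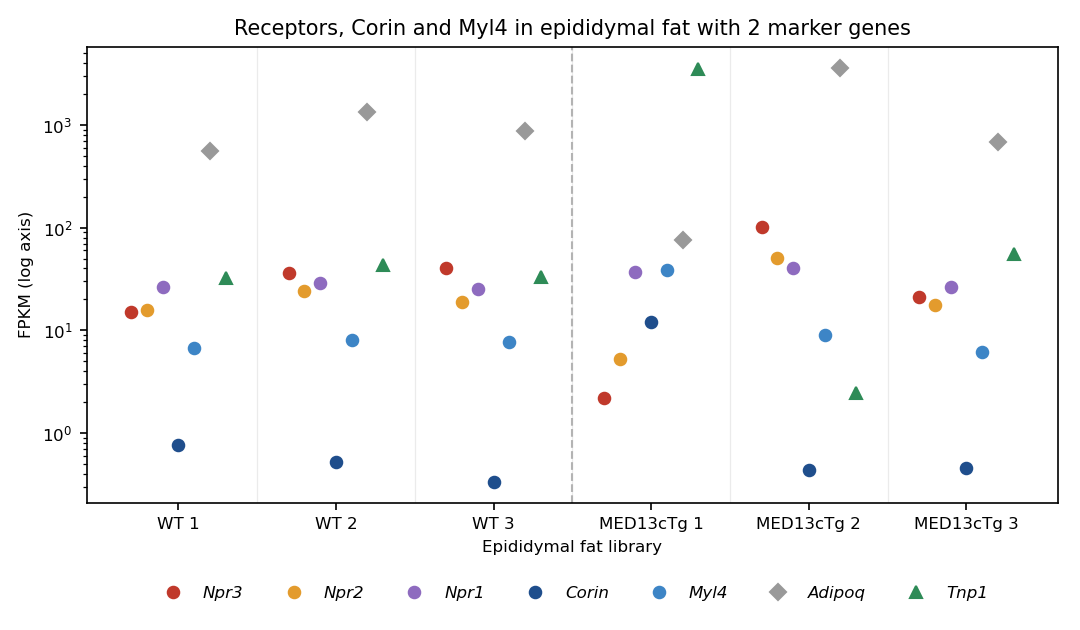
FPKM (log axis) of Npr3, Npr2, the Npr1 entry, Corin and Myl4 in each WAT library, with Adipoq for adipocytes and Tnp1 for spermatids. Npr3 and Npr2 are lowest in MED13cTg replicate 1 and highest in MED13cTg replicate 2 with Adipoq, whereas Corin and Myl4 are highest in MED13cTg replicate 1 with Tnp1.

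Among other pathway genes in WAT, 12 of 16 were tested and 0 passed the threshold. Without overlap, 1 was higher and 0 lower, against 4.88% of all genes higher and 7.8% lower. Prkg1 was the higher one, at 0.756 to 0.934 FPKM in WT against 2.67, 1.25 and 1.03 FPKM in MED13cTg mice (log2 fold change 0.46, SE 0.38, adjusted p = 0.738 by limma). Its WT mean of 0.866 FPKM lay under the filter, which it passed through the MED13cTg libraries, with the highest value in MED13cTg replicate 1. Of 8 genes through which natriuretic peptides can act on adipocytes, 6 were tested, 0 passed the threshold and 0 differed without overlap. Lipe, hormone-sensitive lipase, was at 286, 608 and 461 FPKM in WT against 83.2, 1802 and 366 FPKM in MED13cTg mice, low and high in the same libraries as Npr3. Abhd5, the coactivator of adipose triglyceride lipase, did not share that pattern, at 39.9, 66.3 and 42.4 FPKM in WT against 153, 174 and 41.4 FPKM in MED13cTg mice, and Cidea was likewise high in both MED13cTg replicate 1 and MED13cTg replicate 2, at 8.94 FPKM or more against 2.10 to 5.51 FPKM in WT. These genes of the list were named after their values were seen. Ucp1, the uncoupling protein of thermogenic fat, was between 0.339 and 1.41 FPKM in all 6.

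Side by side, and with the tables of the tissues normalized apart, Nppa was the most abundant member in every ventricle library and under 1 FPKM in every WAT library, the Npr1 entry was at 27.1 to 33.8 FPKM in ventricles and 25.2 to 40.5 FPKM in WAT, and Npr3 was at 7.59 to 11.5 FPKM in ventricles and 2.19 to 100 FPKM in WAT. Levels between tissues were not tested.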

How the data were processed

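RNA from ventricles and epididymal fat was sequenced after TruSeq library preparation. The authors aligned reads with TopHat and deposited FPKM estimated by Cufflinks at default settings, 1 table per tissue, with mm9 per the labels; versions are not given in the sources used here. The labels give 1 ug of RNA per library and an age of 6 weeks, and the paper gives other values for both. FPKM does not correct for the cells in a sample, and 341 entries join several genes, whose values are uncertain. The deposited group means and folds were not used, nor was 1 unnamed column. Absolute depth is unknown. From values under 0.15 FPKM, fragments relative to WT replicate 1 were 0.919 to 1.03 in ventricles and 0.680 to 0.928 in WAT, lowest in MED13cTg replicates 1 and 2.

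Per tissue, genes averaging 1 FPKM or more over the 6 libraries entered limma 3.58.1 (R 4.3.3; lmFit, eBayes with trend) as log2(FPKM + 1) with Benjamini-Hochberg adjustment at 0.05 and no covariates. This scale understates changes of low values, and each fold change is MED13cTg minus WT. For 3 against 3 libraries an exact two-sided permutation test gives no p below 0.1. Named were the 9 genes, Med13, all genes of the atrial and pathway lists, up to 3 genes without overlap from each other list and the 5 genes most like Nppa and Myl7. The genes and lists were chosen with earlier results of these data known. Alternatives were a pseudocount of 0.1, no filter or one at 5 FPKM, quantile normalization, median-of-ratios scaling, no trend, array weights, the replicate number as a block, each library left out, and atrial or epididymis scores as covariates; the library cluster, the score of Sln, Myl7 and Myl4, the adipocyte score and list counts without outlying libraries were added after seeing the data. Deviations of same-numbered libraries correlated at 0.347, 0.304 and 0.144 in WAT, where the block was taken as a pairing. In ventricles they correlated at 0.085, -0.19 and 0.14, and the block was not taken as one. The labels name no pairing, and same-numbered libraries are different mice. In WAT, WT replicate 3 also correlated better with MED13cTg replicate 2, at 0.168, than with MED13cTg replicate 3. On simulated data with 200 genes changed by 2 on the log2 scale, 183 of 200 were recovered in ventricles (12550 genes) and 180 in WAT (14910 genes). In all, 194 and 186 genes were called. All 6 simulated libraries took the spread of the WT libraries, and only genes above a minimum level were changed. Recovery at the wider spread of the MED13cTg libraries was not tested. Promoters came from RefSeq and other values from Python 3.11.15, numpy 2.4.6, pandas 2.3.3 and matplotlib 3.10.9.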

Additional observations from a re-analysis of the deposited data

How the results depend on the processing

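None of the members passed the threshold under any alternative in either tissue, and Med13 in ventricles passed it under all, at 3.93 to 4.29. Of 150 log2 fold changes of members in ventricles under the alternatives, 139 kept their direction and 11, in 4 members, reversed; in WAT 72 of 78 did and 6, in 3 members, reversed. Nppa kept its direction throughout, and the smallest value, 1.16, came without MED13cTg replicate 2. In ventricles, Nppb reversed to -0.053 with the library cluster as covariate. Myl4 reversed to -0.066 with array weights, to -0.33 with the library cluster, to -0.23 without WT replicate 3 and to -0.82 without MED13cTg replicate 2. Npr2 reversed to -0.079 with the score of Sln, Myl7 and Myl4, to -0.080 with the cluster, to -0.052 without WT replicate 2, to -0.070 without WT replicate 3 and to -0.062 without MED13cTg replicate 2 (0.15 at most with a library left out), and Npr1, at -0.15 to 0.0053 with a library left out, reversed without WT replicate 1. Myl4 reached 0.71 without MED13cTg replicate 3. In WAT, Npr2 reversed to 0.26 with array weights, 0.21 with the adipocyte score and 0.61 without MED13cTg replicate 1 (-0.91 without replicate 2), Npr3 to 0.010 with the adipocyte score and 0.70 without MED13cTg replicate 1 (-1.79 without replicate 2), and Myl4 to -0.0018 without MED13cTg replicate 1 (1.22 without replicate 3).

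The number of all genes called in ventricles was 7 and became 3 with the filter at 5 FPKM, 15 with array weights, 4 with the replicate block, 4 with the atrial score, 4 with the score of Sln, Myl7 and Myl4, and 4 to 9 with each library left out, the lowest without MED13cTg replicate 2. In WAT it was 2 and became 0 without the filter, 0 with array weights, 0 with the replicate block, 0 with the epididymis score, 0 with the adipocyte score, and 1 to 5 with each library left out. The block changed no call of a member. In ventricles the replicate numbers are shared names only, since not every pair of same-numbered libraries correlated above 0.1, and WT replicate 1 correlated best with MED13cTg replicate 2. The cause of these shifts was not tested. In fits that leave out a library, 2 libraries stood against 3. Corin in WAT was under the filter without MED13cTg replicate 1 or with a filter at 5 FPKM and gave no value there, and with FPKM alone the depth behind low values such as Nppa in WAT is unknown.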
